A study of Mus musculus with 18 samples.

Results

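The genes that write, copy, remove and shield DNA methylation in the early mouse embryo were followed through 18 single blastomeres. They were chosen by symbol: Dnmt1, Dnmt3a, Dnmt3b, Dnmt3l, Tet3, Uhrf1, Dppa3, Zfp57, Trim28 and Setdb1, that is, 10 of the 30176 genes that could be named on the array. Each was read by 1 probe set (called probe here). Oocytes of B6C3F1 mice, a hybrid of the C57BL/6 and C3H strains, had been activated without sperm in strontium with latrunculin, a drug that stops polar body extrusion and so leaves the embryo diploid, and were then grown in KSOM(aa) medium. All embryos shared this treatment and age (1 day after activation, 20 h in culture), and there was no fertilized or untreated group. The 2-cell embryos were split, and the blastomeres of a pair, lettered a and b, were lysed and profiled on an array each. The labels gave 9 embryos (numbers 1 to 5 and 7 to 10). The comparisons were therefore between sisters and between embryos, which asks whether these regulators are handed on evenly at the first cleavage. The p-values measure the spread between these 18 arrays, and the noise of amplifying the RNA of 1 cell is part of that spread.

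After fertilization or activation most methylation of the oocyte genome is lost, in part by oxidation of methylcytosine and in part by dilution as DNA is copied, while the marks of imprinted genes and some repeats are kept. Dnmt1, helped by Uhrf1, copies methylation to the new strand, and the zinc finger protein Zfp57 holds it at imprinted regions through Trim28 (KAP1) and the histone methyltransferase Setdb1. A parthenogenetic embryo carries maternal genomes only, so it has the methylation imprints of the oocyte and none of those set in sperm.

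The values were log2 signals as deposited, so a difference of 1 unit is a 2-fold difference. The background threshold was set at 5.78, the 95th percentile of the mean signals of chemosensory receptor and Y-linked genes, and 13004 genes had a mean above it. All 10 genes passed, and none of their 18 values lay below the threshold in any gene. With the 99th percentile (7.18) as the threshold 9 of the 10 passed, Dnmt3l being the exception. The probe of Sry, a gene these embryos do not have, read 7.82 ± 0.22 (SD, n = 18), above the means of Dnmt3b and Dnmt3l, so for these 2 genes the signal alone does not show a transcript. Of 12 oocyte and 2-cell markers 11 were above background: Btg4, Zp3, Oosp1, Gdf9, Bmp15, Nlrp5, Zar1, Obox5, Zscan4c, Zscan4d and Zscan4f. Their sister ratio ran from 1.05 in Btg4 to 2.56 in Zp3, and 4 of the 11 (Oosp1 and the 3 Zscan4 genes) passed the embryo test, Oosp1 also the sister test (exact permutation test, adjusted p = 0.0435). Of 19 measured cumulus and granulosa markers 3 were (Amhr2 at 5.90, Has2 at 6.43 and Nr5a2 at 9.51). Of 8 measured blood and oviduct markers 4 were (Pecam1 at 7.63, Epcam at 6.88, Cd68 at 5.87 and Wfdc2 at 7.90). Amhr2, Has2, Pecam1, Epcam and Cd68 read under the Sry probe, so for them too the signal alone does not show a transcript. Wfdc2 read barely above it. Nr5a2 read well above it, and whether its signal came from the blastomeres or from other cells was not tested. The mean signal of the cumulus list ran from 5.07 to 5.40 over the arrays. Relative log expression spread most widely on arrays 1a and 5b (interquartile range 0.815 and 0.83, against 0.545 in the tightest array), and their mean correlation with non-sister arrays was the lowest (0.900 and 0.901), with 7a and 7b next to them (0.904 and 0.902).

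The promoters of Tet3, Setdb1 and Trim28 are shown because the embryo means of the first 2 varied together and those of the third in the opposite sense (values below), and because each of the 3 has a single start in the RefSeq promoter table of build GRCm38.p6. Each line runs 5′ to 3′ from 250 bases before the start of the gene to 50 bases after it. The CpG dinucleotides, the sites that the Dnmt enzymes methylate and Tet3 oxidizes, are in capitals.
Tet3: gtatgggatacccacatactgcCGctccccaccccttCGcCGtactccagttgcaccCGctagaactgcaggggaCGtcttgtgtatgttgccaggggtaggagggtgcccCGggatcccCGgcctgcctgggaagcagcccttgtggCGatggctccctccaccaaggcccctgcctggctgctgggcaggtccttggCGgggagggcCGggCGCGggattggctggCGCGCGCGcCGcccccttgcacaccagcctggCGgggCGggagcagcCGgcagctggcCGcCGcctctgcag
Setdb1: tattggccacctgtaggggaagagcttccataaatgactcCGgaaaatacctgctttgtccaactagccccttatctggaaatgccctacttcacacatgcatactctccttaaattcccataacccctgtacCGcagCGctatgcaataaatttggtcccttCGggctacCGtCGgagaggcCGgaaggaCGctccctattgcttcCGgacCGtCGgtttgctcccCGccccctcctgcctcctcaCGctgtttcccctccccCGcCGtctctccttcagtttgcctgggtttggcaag
Trim28: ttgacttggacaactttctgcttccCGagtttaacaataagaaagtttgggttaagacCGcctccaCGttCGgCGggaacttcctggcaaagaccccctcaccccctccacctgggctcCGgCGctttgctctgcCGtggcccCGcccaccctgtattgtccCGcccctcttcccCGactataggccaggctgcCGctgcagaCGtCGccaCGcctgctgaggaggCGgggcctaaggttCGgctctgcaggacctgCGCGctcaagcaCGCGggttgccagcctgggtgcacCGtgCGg
The Tet3 window lies at chr6:83441629-83441928 on the minus strand and holds 22 CpG. The Setdb1 window lies at chr3:95357153-95357452 on the minus strand and holds 15. The Trim28 window lies at chr7:13023902-13024201 on the plus strand and holds 23. The median of all 32851 windows of this length was 7 CpG, and 76.9%, 65.4% and 78.5% of them held fewer than the windows of Tet3, Setdb1 and Trim28.

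Of the 10 genes 9 were matched in the promoter table (Dppa3 was not), with 18 windows in all. The most CpG-rich were 2 of the 3 windows of Dnmt3a, with 46 and 47 CpG. The windows of Dnmt3l held 3 to 6 CpG and those of Zfp57 held 4 to 9. The motif GGGCGG, searched on both strands and overlapping CpG by its own letters, was in the windows of Tet3, Setdb1 and Trim28 and in 35.7% of all windows. The motif TATAAA, searched in the same way, was in none of these 3, in 1 window of Zfp57 and in 13.6% of all windows. These are counts of letters in the reference, and methylation of the blastomeres was not measured. Which starts the blastomeres used was not measured either.

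**Figure D1:**
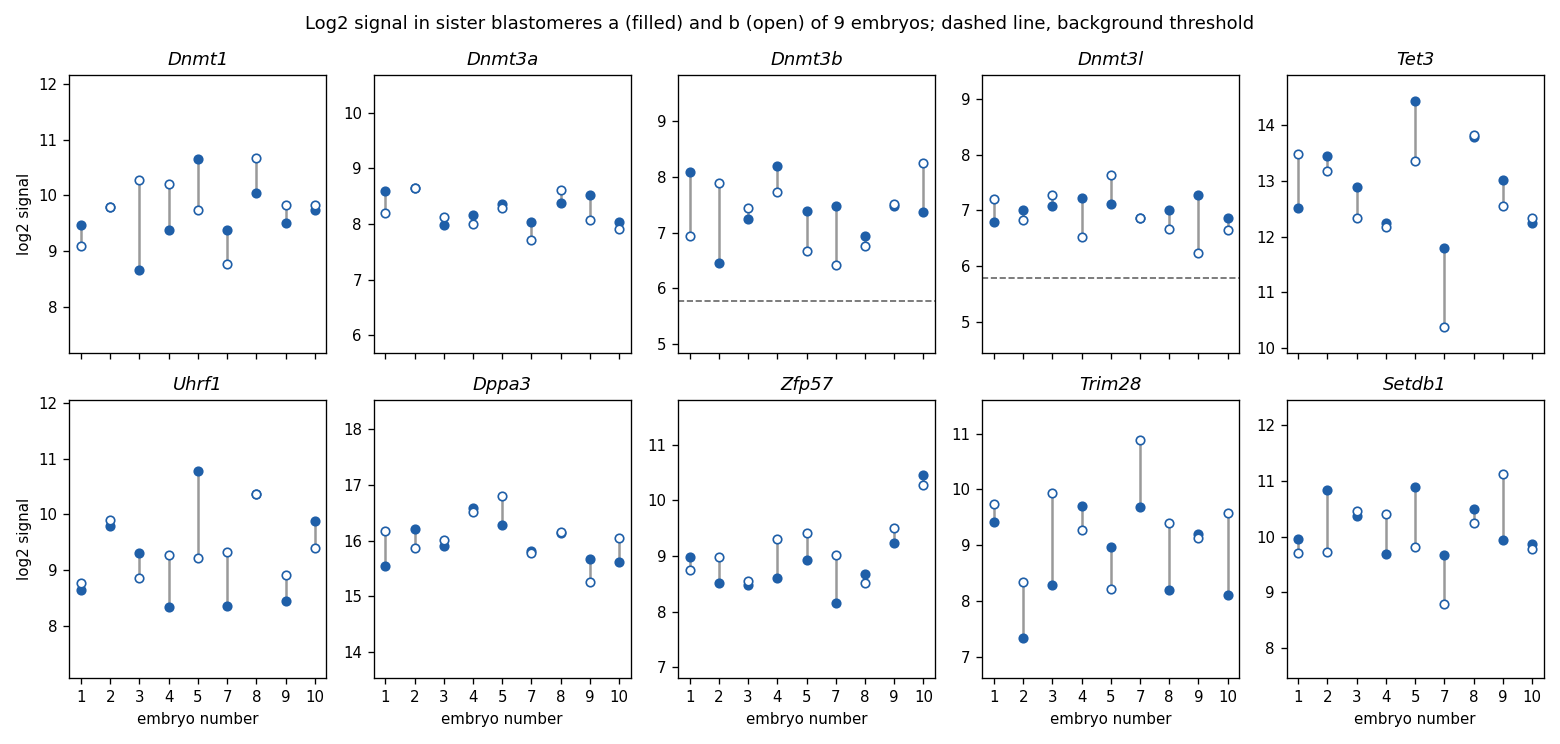
Log2 signal (vertical axis, each panel spanning 5 units) of the 10 genes in sister blastomeres a (filled) and b (open) of 9 embryos (horizontal axis), sisters joined by a line; the dashed line is the background threshold of 5.78, drawn for Dnmt3b and Dnmt3l. In Tet3 both sisters of embryo 7 lie below all other blastomeres, in Zfp57 both sisters of embryo 10 lie above all others, and in Trim28 the joining lines are long.

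Tet3, the dioxygenase of the oocyte that oxidizes methylcytosine after fertilization, was the gene that differed most between embryos. Its signal averaged 12.78 ± 0.93 (SD, n = 18), with a lowest value of 10.37 in blastomere 7b, a median of 12.72 and a highest value of 14.44 in 5a. The sisters of embryo 7 read 11.79 and 10.37, those of embryo 5 read 14.44 and 13.36, and those of embryo 8 read 13.78 and 13.82. All blastomeres of embryos other than 7 read 12.17 or more, so embryo 7 did not overlap with the rest, whereas the other embryos overlapped with their neighbours. The remaining pairs were 12.52 and 13.48 in embryo 1, 13.45 and 13.17 in embryo 2, 12.89 and 12.34 in embryo 3, 12.25 and 12.17 in embryo 4, 13.02 and 12.55 in embryo 9, and 12.25 and 12.34 in embryo 10. The embryo means ran from 11.08 in embryo 7 to 13.90 in embryo 5, a 7.06-fold range on the linear scale.

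The difference between embryos passed the test for Tet3 (limma moderated F test against the spread between sisters, adjusted p = 0.0401). It was 1 call in 10 genes, beside 743 of the 13004 genes above background, which is 5.71%. Without the threshold on background the adjusted p was 0.0905, with the plain analysis of variance it was 0.107, and leaving out 1 pair at a time moved it between 0.0305 (without pair 1) and 0.102 (without pair 7). The call was lost without pair 2, 4, 5, 7, 8, 9 or 10. Sisters differed in Tet3 by 52.0% of the difference between non-sisters, with a mean absolute difference of 0.55 log2 units over the 9 pairs and 1.06 over the 144 couples of non-sisters. The exact permutation test over all ways of pairing the blastomeres gave p = 0.00386 and an adjusted p of 0.142. Embryo 7, whose arrays stood apart as given above, was also the lowest of the 9 in the 2-cell stage genes Zscan4c (13.98), Zscan4d (13.18) and Zscan4f (14.00), and embryo 8 was the highest in them (16.57, 15.62 and 16.92). These 3 are near-identical copies of one family, and each passed the embryo test. Embryo 7 was the lowest as well in the oocyte genes Oosp1 (16.16), Bmp15 (16.87) and Obox5 (15.79). Of these only Oosp1 passed (limma adjusted p = 0.0177), with embryo 5 the highest at 17.07. The other markers above background were lowest elsewhere: Btg4 and Nlrp5 in embryo 1, Gdf9 in 3, Zar1 in 9 and Zp3 in 10. The part of the oocyte and 2-cell markers in the Tet3 difference was not tested.

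Zfp57, the zinc finger protein that binds the methylated allele of imprinted regions, stood out in embryo 10. Its signal averaged 9.02 ± 0.61 (SD, n = 18), from 8.16 in blastomere 7a through a median of 8.96 to 10.45 in 10a. The sisters of embryo 10 read 10.45 and 10.28, and none of the other 16 blastomeres exceeded 9.51. Embryo 3 had the lowest mean (8.52), embryo 9 the second highest (9.37) and embryo 10 the highest (10.36), a 3.61-fold range. The difference between embryos missed the threshold in the limma fit (adjusted p = 0.0966), and without pair 10 the adjusted p was 0.674. The mean absolute difference was 0.38 log2 units between sisters and 0.69 between non-sisters (exact permutation test, p = 0.0407, adjusted p = 0.332).

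Dppa3 (Stella), a maternal protein that shields the maternal genome from oxidation by Tet3 and keeps Uhrf1 from chromatin in the oocyte, varied about as much as the 84 genes of like signal, of which 52.4% had a smaller sister difference. Its signal averaged 16.02 ± 0.39 (SD, n = 18), from 15.26 in blastomere 9b through a median of 16.03 to 16.80 in 5b. The lowest embryo was 9, with sisters at 15.68 and 15.26, and the highest were 4, with 16.58 and 16.51, and 5, with 16.28 and 16.80. Blastomeres of other embryos fell between these values, and 1a (15.54) and 10a (15.62) overlapped with embryo 9. Its adjusted p between embryos was 0.109, and the mean absolute difference was 0.29 log2 units between sisters and 0.46 between non-sisters (exact permutation test, p = 0.0447, adjusted p = 0.348). The RefSeq table lists a pseudogene, Dppa3-ps, and whether it adds to the probe signal was not tested.

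Uhrf1, which recognizes hemimethylated DNA and brings Dnmt1 to it, averaged 9.33 ± 0.73 (SD, n = 18), from 8.34 in blastomere 4a through a median of 9.29 to 10.77 in 5a. The sisters of embryo 8 read 10.36 and 10.37, whereas those of embryo 5 read 10.77 and 9.22. One sister of embryo 5 was thus the highest of all 18 and the other lay near the middle. Embryo 9 had the lowest mean, 8.68, and embryo 8 the highest, 10.36 (adjusted p = 0.205). Dnmt1, the maintenance methyltransferase, averaged 9.71 ± 0.56 (SD, n = 18), from 8.66 in blastomere 3a through a median of 9.76 to 10.67 in 8b. Its widest pair was embryo 3, with 8.66 in sister a and 10.27 in sister b, a 3.05-fold ratio so that 1 embryo covered most of the range of the gene. Its mean was lowest in embryo 7, at 9.07, and highest in embryo 8, at 10.36 (adjusted p = 0.619).

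The de novo enzymes Dnmt3a and Dnmt3b place methyl groups on unmethylated DNA, and Dnmt3l is their cofactor without catalytic activity, needed for imprints in the oocyte. Dnmt3a was the steadiest of the 10 genes. Its signal averaged 8.24 ± 0.28 (SD, n = 18), from 7.72 in blastomere 7b through a median of 8.18 to 8.64 in both sisters of embryo 2. Sisters differed by 0.21 log2 units on average, and only 5.19% of all genes above background, and 1.54% of the 1758 genes of like signal, had a smaller sister difference. Embryo 7 had its lowest mean, 7.88, and embryo 2 its highest, 8.64 (adjusted p = 0.555).

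Dnmt3b averaged 7.35 ± 0.56 (SD, n = 18), from 6.42 in blastomere 7b through a median of 7.42 to 8.25 in 10b. In embryo 2 sister a read 6.46 and sister b 7.90, and in embryo 1 sister a read 8.09 and sister b 6.94, so the higher sister was not of the same letter. Dnmt3l averaged 6.95 ± 0.32 (SD, n = 18), from 6.24 in blastomere 9b through a median of 6.94 to 7.63 in 5b. In both genes sisters were as far apart as non-sisters or farther (103% and 109% of the non-sister difference), and neither passed the embryo test (adjusted p = 0.706 and 0.871).

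Trim28, the corepressor that Zfp57 recruits to imprinted regions, was the gene in which sisters differed most. Its signal averaged 9.08 ± 0.85 (SD, n = 18), from 7.34 in blastomere 2a through a median of 9.24 to 10.88 in 7b. The sisters read 8.29 and 9.94 in embryo 3, 8.10 and 9.57 in embryo 10, 8.20 and 9.40 in embryo 8, and 9.69 and 10.88 in embryo 7, with b above a in these 4 pairs. They were close in embryo 9 (9.20 and 9.13). Over all 9 pairs b exceeded a by 0.62 ± 0.28 log2 units (SE of the limma fit), in 6 pairs, with an adjusted p of 0.98. The letters have no stated meaning, and limma called 0.0% of genes between them (593 of 13004, or 4.56%, at an unadjusted p under 0.05, of these genes Trim28 only). The embryo means ran from 7.84 in embryo 2 to 10.28 in embryo 7, a 5.46-fold range that was not separated from the spread between sisters (adjusted p = 0.351).

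Setdb1, the methyltransferase that Trim28 brings in to mark histone H3, averaged 10.10 ± 0.56 (SD, n = 18), from 8.79 in blastomere 7b through a median of 9.94 to 11.12 in 9b. Embryo 7 was the lowest, with sisters at 9.66 and 8.79, and its 2 values lay below all others. In embryo 9 sister a read 9.93 and sister b 11.12, and in embryo 2 sister a read 10.84 and sister b 9.72. The difference between sisters was 99.3% of that between non-sisters, and the adjusted p between embryos was 0.604. An embryo with both sisters below or above all 16 other blastomeres was found in 4 of the 10 genes (Tet3, Zfp57, Setdb1 and Dnmt3a, the last by embryo 2), beside 20.7% of all genes above background. The margin was narrow in Setdb1 (9.66 in 7a against 9.69 in 4a) and in Dnmt3a (8.64 in both sisters of embryo 2 against 8.61 in 8b).

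Across the 10 genes sisters were closer than non-sisters on average in 8, beside 68.7% of all genes above background. The sister difference was also taken gene by gene as a percentage of the non-sister difference. The median of these percentages was 78.5% in the 10 genes and 88.2% over all genes. The exact permutation test called none of the 10 at an adjusted p under 0.05, beside 0.923% of all genes called with sisters closer (120 genes) and 0.0% with sisters farther. At an unadjusted p under 0.05 Tet3, Zfp57 and Dppa3 had sisters closer, beside 12.9% of all genes. At the same limit the limma embryo test held Tet3, Zfp57, Dppa3 and Uhrf1, beside 22.5%.

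The sister ratio, the higher linear signal over the lower one in a pair, describes how unevenly a transcript was found. It is never under 1 and grows with technical noise. Trim28 had the highest geometric mean over the 9 pairs, 1.86 (coefficient of variation 36.0%, single pairs from 1.05 to 3.14), and Dnmt3a the lowest, 1.16 (10.7%, from 1.00 to 1.37). Dnmt3b followed Trim28 with 1.60, Setdb1 with 1.54, Dnmt1 with 1.52, Uhrf1 with 1.48 and Tet3 with 1.47, while Dnmt3l had 1.32, Zfp57 1.30 and Dppa3 1.22. Between non-sisters the ratio was 1.97 in Trim28, 1.26 in Dnmt3a and 2.09 in Tet3. The median over the 10 genes was 1.47 between sisters and 1.57 between non-sisters, beside 1.45 and 1.56 over all genes above background. A pair was over 2-fold apart in 15 of 90 cases (16.7%, beside 18.8% over all genes), of which 4 were in Trim28, 3 each in Dnmt3b and Setdb1 and none in Dnmt3a, Zfp57 or Dppa3. The variance between sisters was set against that of genes of like signal in an F test on limma's prior, and none of the 10 genes was called. That prior (3.29 degrees of freedom) was estimated from these same sister variances, so the test could hardly call a gene and does not show evenness. The same test called 0.0% of all genes, and 543 (4.18%) at an unadjusted p under 0.05, none of the 10 genes among them.

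**Figure D2:**
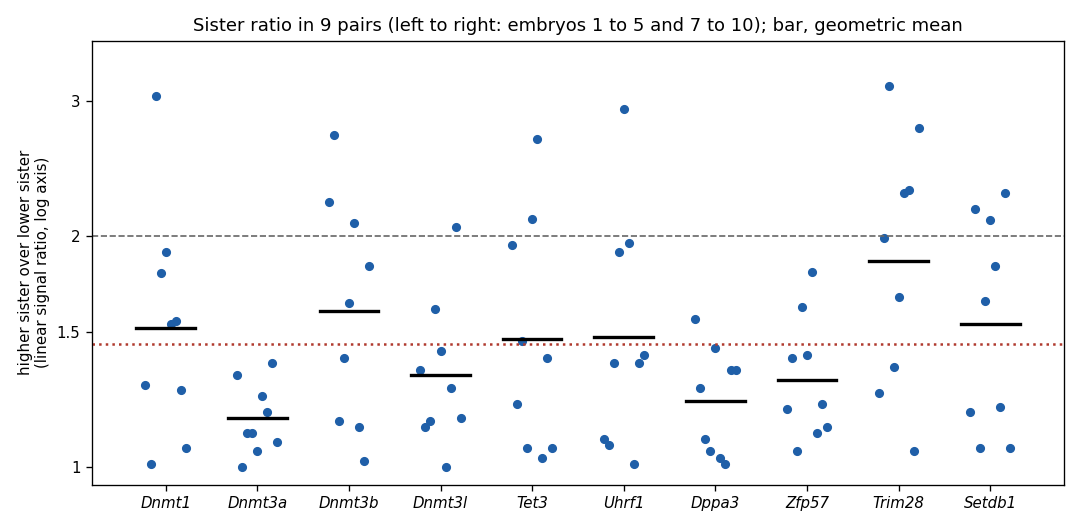
Ratio of the higher to the lower sister (vertical axis, log scale, linear signal) in the 9 pairs of each gene, ordered by embryo from left to right, with the geometric mean as a bar; the dashed line marks 2-fold and the dotted line the median of all genes above background (1.45). Trim28 has 4 pairs above the 2-fold line, and all pairs of Dnmt3a lie at or below 1.37.

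By embryo, the geometric mean ratio over the 10 genes was highest in pair 5 (1.70) and pair 7 (1.66) and lowest in pair 8 (1.24), where over all genes above background it was 1.64, 1.59 and 1.47. In pair 5 Tet3, Uhrf1 and Setdb1 were over 2-fold apart, each higher in sister a, beside 23.3% of all genes. In pair 7 Dnmt3b and Tet3 were over 2-fold higher in a, and Trim28 in b, beside 21.2% of all genes over 2-fold apart. In pair 4 none of the 10 genes passed 2-fold, beside 16.9%. Pair 1, which had the largest share of all genes over 2-fold apart (25.6%, against 15.7% in pair 10), had 1 of the 10 genes there, Dnmt3b.

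Over the 9 embryo means some of these genes varied together. Tet3 and Dnmt3a had a Pearson r of 0.82 (Spearman rho 0.83), and 0.81 without the 2 embryos farthest from the median of Dnmt3a. Dnmt1 and Uhrf1, partners in maintenance, had an r of 0.81 (rho 0.73), and 0.72 without embryos 7 and 8. Both couples ran through embryos with high values of each gene, such as embryo 8, and embryos with low values. The differences between sisters (b minus a) did not follow this. Their r was -0.05 for Tet3 and Dnmt3a and 0.19 for Dnmt1 and Uhrf1. Of the genes in this paragraph only Tet3 passed the embryo test, so the embryo means of the others were not separated from the spread between sisters. Tet3 was also related to Dnmt1 (r = 0.77) and Setdb1 (r = 0.76) and inversely to Trim28 (r = -0.74), but these values fell to 0.45, 0.39 and -0.46 without 2 embryos (7 and 8 for Dnmt1, 5 and 7 for the others). Uhrf1 and Trim28 had an r of -0.71, and -0.80 without embryos 5 and 8. In all, 4 of the 45 couples had an r of 0.7 or more and 2 had -0.7 or less, beside 2.94% and 2.40% of all couples of genes above background.

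For the other partners in function the relation over the embryo means was weaker or inverse with all 9 embryos. The r was -0.18 for Zfp57 and Trim28, -0.67 for Trim28 and Setdb1 (-0.38 without embryos 2 and 7), 0.10 for Dnmt3a and Dnmt3l, and -0.33 for Dnmt3a and Dnmt3b (-0.72 without embryos 2 and 7). For Dppa3 it was 0.36 with Tet3 and 0.41 with Uhrf1, and both values depended on which embryos were left out. With Uhrf1 it was 0.76 without embryos 4 and 5 and 0.11 without embryos 5 and 8. With Tet3 it was 0.45 without embryos 4 and 5 and -0.07 without embryos 5 and 7. These are descriptions over 9 points whose values come from the same arrays.

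**Figure D3:**
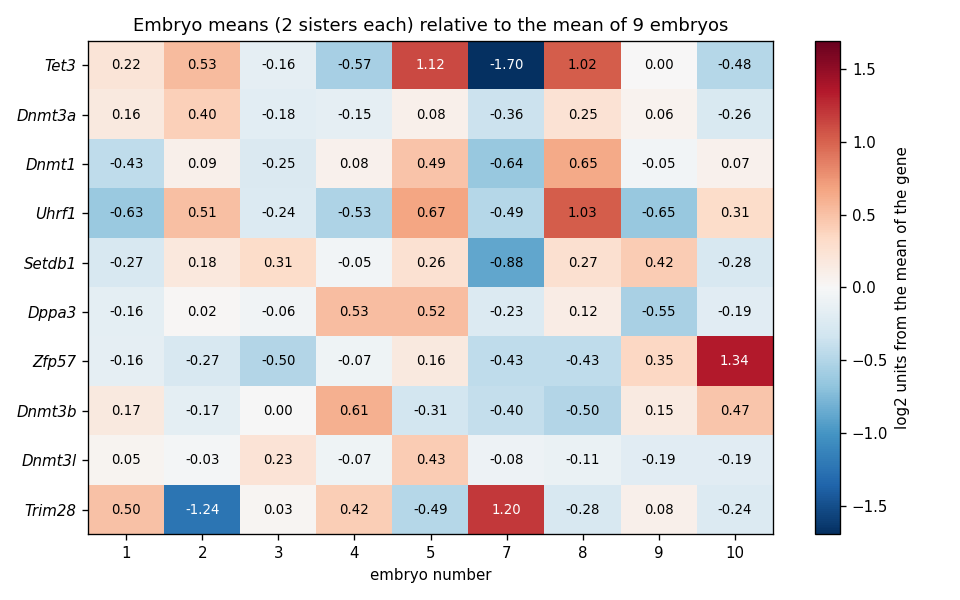
Embryo means (2 sisters each) of the 10 genes in log2 units from the mean of each gene over the 9 embryos (horizontal axis, embryo number; colour and printed number, the difference). Embryo 7 has the lowest mean of Tet3, Dnmt3a, Dnmt1 and Setdb1 and the highest of Trim28, and embryo 10 stands apart in Zfp57.

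Embryo 7 held the lowest mean of 4 of the 10 genes (Dnmt1, Dnmt3a, Tet3 and Setdb1) and the highest of Trim28, beside 12.7% of all genes with their lowest and 15.0% with their highest mean there. Embryo 9 held the lowest mean of Uhrf1 and Dppa3 and, level with embryo 10 (6.76), of Dnmt3l, beside 14.7% of all genes. Embryo 9 also held the highest mean of Setdb1. Embryo 5 was highest in Tet3 and Dnmt3l and embryo 8 in Dnmt1 and Uhrf1. No embryo was low or high in all 10 genes.

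The genes that work with these 10 were followed as 5 lists of 74 genes, of which 61 were measured and 52 were above background. Of the 52, 3 differed between embryos in the limma test (5.77%, beside 5.71% of all genes), none was called by the exact pairing test, the excess test or the letter test, and their median sister ratio was 1.47. Uhrf2, a relative of Uhrf1, was 1 of 11 readers and maintenance partners above background with means of 5.80 in embryo 8 and 7.56 in embryo 7 (adjusted p = 0.0487). Its mean (6.39) lay under the 99th percentile threshold and its highest blastomere (7.65) under the mean of Sry, so, as for Dnmt3b and Dnmt3l, the signal alone does not show a transcript. Atf7ip2, of the family of Setdb1 cofactors, was 1 of 12 heterochromatin partners with a lowest mean of 9.89 in embryo 8 and a highest of 12.08 in embryo 7 (adjusted p = 0.03). Rbbp7, a histone-binding subunit of several chromatin complexes, was 1 of 12 imprint binding and establishment factors with 16.28 in embryo 7 as its lowest mean and 17.26 in embryo 8 as its highest (adjusted p = 0.0107). The extremes of all 3 were embryos 7 and 8. Over all genes above background embryo 7 held 12.7% of the lowest and 15.0% of the highest means, and embryo 8 held 9.05% and 14.0%. Rbbp7 was lowest in embryo 7, as Tet3 was, and the other 2 were highest there. The highest mean of Tet3 was in embryo 5 (13.90, against 13.80 in embryo 8).

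Among the readers and maintenance partners Mbd2 had the lowest sister ratio (1.17) and Cdca7l the highest (2.32). Among 9 genes of active demethylation and base repair none passed the embryo test, and the ratio ran from 1.19 in Xrcc1 to 2.34 in Tet1, a relative of Tet3 whose signal was 8.87 ± 1.02 (SD, n = 18). Tet2, the third gene of that family, lay at the background threshold (5.78 ± 0.69). Among the heterochromatin partners the ratio ran from 1.12 in Ehmt2, which methylates histone H3, to 1.90 in Morc3. Among the imprint factors it ran from 1.13 in Rbbp7 to 2.11 in Kdm1b, the oocyte histone demethylase needed to set maternal imprints. Among 8 genes of methyl donor supply none passed the embryo test, and the ratio ran from 1.30 in Shmt1 to 2.04 in Mtrr. The mean signals of Mbd2 (7.05), Xrcc1 (6.32), Ehmt2 (7.01) and Mtrr (6.45) lay under that of Sry (7.82). For these genes, as for Uhrf2, the signal alone does not show a transcript, so their ratios need not describe one.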

How the data were processed

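RNA of 18 single blastomeres was hybridized to Affymetrix Mouse Transcriptome Array 1.0, 1 array each. The authors deposited log2 values per probe set, made by signal space transformation robust multiarray averaging, which corrects the background, scales the arrays to each other and summarizes the probes. The methods name Expression Console, also in the submitters' processing notes, and Transcriptome Analysis Console. This normalization hides differences in total RNA between blastomeres. The table held 65956 probe sets from 2.14 to 19.41 log2 units, with array medians of 4.86 to 5.26, and no detection call. The number of arrays limits the precision.

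Probe sets were named through the platform annotation: 30638 had 1 symbol, 2176 had several and were not used, and 33142 were not listed. Where a gene had several, which was so in 354 genes, the one with the highest mean was kept. The background threshold came from 1778 receptor and Y-linked genes. Embryos were compared by a moderated F test over embryos in limma 3.58.1 (R 4.3.3) with an intensity trend, adjusted over the 13004 genes by Benjamini-Hochberg and called at 0.05. Sister closeness was tested two-sided and exactly over all 34459425 pairings, and letters with embryo as a block. Excess sister variance was set against limma's prior. Scripts were tested on simulated data. The 10 genes and the lists were chosen with earlier results of these data known. All 10 genes are named, and of the lists around them the genes called in a test, those with the lowest and highest sister ratio, and the markers above background; Tet2 was named after its value was seen.

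Alternatives were no threshold, a threshold at the 99th percentile, quantile normalization or median centring, the mean over probes, no intensity trend, the plain analysis of variance, and leaving out pairs or single blastomeres. No build of the array design is given in the sources used here, and promoter coordinates are those of RefSeq.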

Additional observations from a re-analysis of the deposited data

Results flagged for a closer look

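The mean of Zfp57 in embryo 10, 10.36 log2 units, lay far from those of the other 8 embryos, which ran from 8.52 to 9.37. The gap to the nearest embryo was 0.538 of the whole range, above the critical value of 0.493 for 9 values. Both sisters of embryo 10 were high (10.45 and 10.28). It was the only such value in 20 sets of 9 values examined (the embryo means and the sister differences of 10 genes), and chance alone gives about 1 in 20.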

How the results depend on the processing

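The number of genes that differed between embryos (743) was 403 without the background threshold and 354 with the plain analysis of variance, and leaving out a pair or a blastomere gave 423 to 893. The call of Tet3, the 1 of the 10 genes called, held in 12 of 35 alternatives: under both of those settings 0 of the 10 genes were called, and 0 to 1 when a pair or a blastomere was left out. Its adjusted p ran from 0.0232 (threshold at the 99th percentile) to 0.107. It was 0.0265 with quantile normalization, 0.0313 with median centring and 0.0363 without pairs 1 and 5. No other gene of the 10 crossed the threshold in any alternative. The number of genes with sisters closer (120) was 39 without the background threshold, 74 with median centring, 22 without pairs 1 and 5 and 27 to 61 with a pair left out, where fewer pairings are possible. Apart from that construction the cause of these changes was not tested. All 149 recomputed mean sister ratios of the 10 genes moved by less than the spread over pairs. Much of this was fixed in advance. The threshold settings and the mean over probes leave these ratios unchanged, because each gene has 1 probe set, and leaving out a pair can move them little. No further paired analysis was possible because the pair is itself the group and the letters pair nothing across embryos.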

Other observations

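Over the 9 pairs the sister differences (b minus a) of Tet3 and Zfp57 had opposite signs in every pair, with an r of -0.74 (rho -0.77). Those of Dnmt3l and Dppa3 had an r of 0.76 and those of Dnmt3l and Setdb1 an r of -0.73. These were the 3 of 45 couples at 0.7 or beyond in either direction, beside 2.19% of all couples of genes above background at 0.7 or more and 2.07% at -0.7 or less. The couples were chosen after their values were seen, the 9 points of a couple come from the same arrays, and no test was made. The signal of Dnmt3l (mean 6.95, under that of Sry) does not alone show a transcript.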
